A study of Mus musculus with 6 samples.

Results

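The 10 genes described here encode transcription factors of effector regulatory T (Treg) cells and of helper T cell lineages: Batf, Prdm1, Maf, Tbx21, Bcl6, Bach2, Nfil3, Eomes, Zeb2 and Hif1a. They were chosen as a list of symbols, by no cutoff on a measured value but with earlier results of these data known. Each matched 1 of the 32377 gene identifiers of a table of mouse RNA-seq read counts. Of its 6 libraries, 3 carry the label TNFR2-deficient Treg and 3 the label TNFR2 positive Treg (TNFR2-positive below). Tnfrsf1b encodes TNFR2, which binds tumour necrosis factor on Treg cells, and the series concerns the ATPase TRIP13 and the acetyltransferase HAT1 in Treg cells. Strain, age, tissue, sort, the way TNFR2 was lost and the number of animals are not given in the labels, so all p-values here refer to variation among the sequenced libraries, and that variation may be technical.

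Treg cells leave a resting state when they meet antigen and become effector Treg cells, which enter tissues and make suppressive molecules. BATF, a small basic leucine zipper protein that binds DNA together with JUN proteins and IRF4, starts this step, and BLIMP-1, the zinc finger repressor encoded by Prdm1, marks its later stages. BACH2 and BCL6 are repressors that hold back BLIMP-1, BCL6 also being the lineage factor of follicular helper and follicular regulatory T cells. The T-box factors T-bet (Tbx21) and EOMES, with the repressor ZEB2 downstream of T-bet, run type 1 and cytotoxic programmes, while c-MAF, NFIL3 and HIF-1alpha act in cytokine production, in innate lymphocytes and effector T cells, and in the response to low oxygen.

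Library totals ran from 19296082 to 24038118 counts, and 3 counts corresponded to 0.125 to 0.155 CPM (counts per 1000000 counts of a library), a limit for counting error alone. Tnfrsf1b was at 7.87 ± 0.503 CPM in the TNFR2-deficient and 83.0 ± 2.48 CPM in the TNFR2-positive libraries (SD, n = 3 per group, as for all means here; CPM scaled by TMM, a correction for composition), the direction of the label. Foxp3, which defines Treg cells, was at 1.44 ± 0.0974 against 75.5 ± 2.14 CPM, so the defining transcript was nearly absent from the libraries labelled TNFR2-deficient Treg. Of 8 Treg markers 8 fell, and of 7 markers of double-positive thymocytes 7 rose, with Rag1, a subunit of the V(D)J recombinase, at 917.9 ± 72.7 against 3.31 ± 0.0785 CPM. Transcripts of B cells were abundant in both groups: the summed level of 8 B cell markers was 7171 to 7499 CPM in the TNFR2-deficient and 5947 to 6096 CPM in the TNFR2-positive libraries, above the 1302 to 1342 and 675 to 685 CPM of 6 T cell markers. Bach2, Bcl6, Prdm1, Maf, Zeb2, Eomes, Tbx21 and Nfil3 are also known from B, myeloid or natural killer (NK) cells, and in bulk RNA fewer cells of a type and less RNA per cell cannot be told apart. Mitochondrial transcripts took 6.14% to 6.37% of counts in the TNFR2-deficient and 4.65% to 5.23% in the TNFR2-positive libraries, with no overlap. Mitochondrial genes and the marker genes of other cell types were also left out of the fit. Then 7 of the 10 factors were lower and 2 higher, the same counts as with them. Each gene is fitted on its own counts, so this cannot test the part of other cells in the levels of the factors. TNFR2-positive library 1 stood apart from the other two of its group, with a chi-square per gene of 13.9 and 18.5 against them and 2.45 between those.

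**Figure D1:**
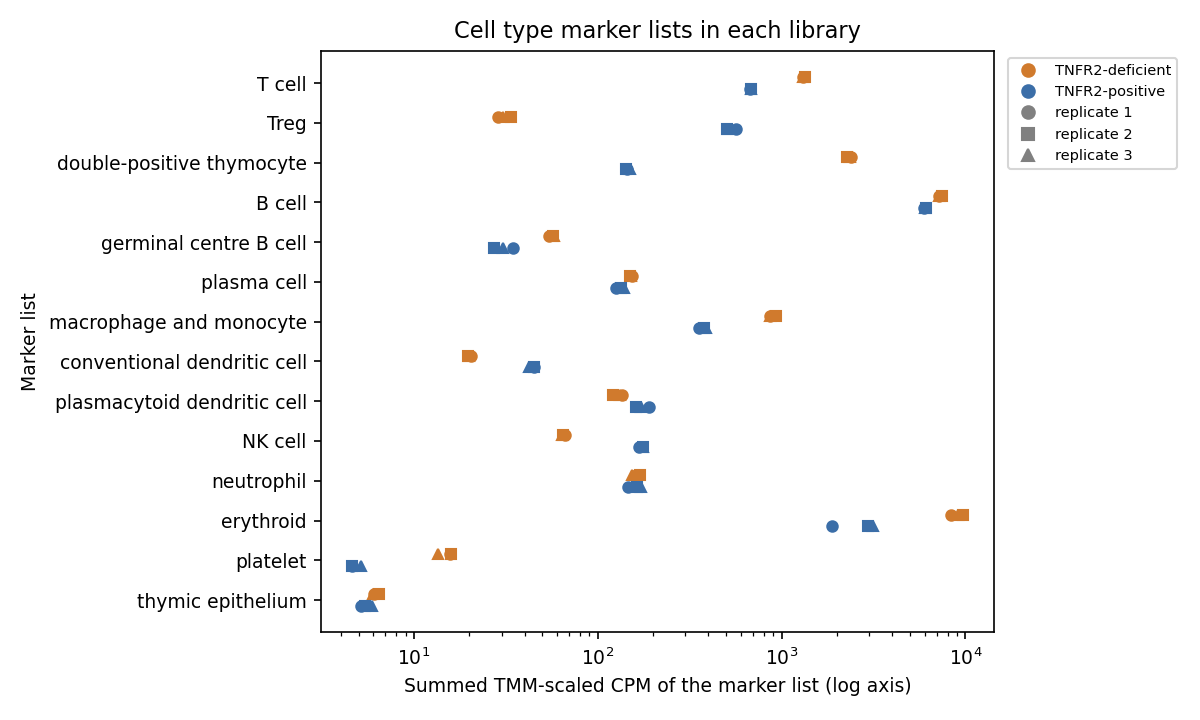
Summed TMM-scaled CPM (log x axis) of each cell type marker list (y axis) in every library; colours are groups and symbols are replicate numbers. Treg markers sum to 28.8 to 33.7 CPM in the TNFR2-deficient and 506 to 563 CPM in the TNFR2-positive libraries, thymocyte markers to 2268 to 2396 against 142 to 151 CPM, and B cell markers are high in both groups.

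Most of the 10 factors were lower in the TNFR2-deficient libraries, and the falls were unequal. Eomes fell 4.87-fold, Nfil3 3.95-fold and Prdm1 2.59-fold, while Zeb2, Bach2, Hif1a and Maf fell by 1.35-fold to 1.63-fold. Bcl6 and Tbx21 rose 1.61-fold and 1.55-fold, and Batf did not pass the test. The calls of Zeb2 and Maf were lost when the relation to exonic length was removed, and the log2 changes of Bach2 and Hif1a shrank by more than 1.5 times. All 10 entered the test, so no member was lost to the filter on low counts. In edgeR's quasi-likelihood test over 17022 genes, at a Benjamini-Hochberg adjusted p below 0.05, 7 of 10 members were lower, beside 34.2% of all genes tested, and 2 of 10 were higher, beside 35.1%. Calls in either direction were made for 9 of 10 members and for 69.3% of all genes, so a call as such does not set a member apart. The median log2 fold change (log2FC, TNFR2-deficient over TNFR2-positive) was -0.59 over the members and 0.04 over all genes tested. The 3 libraries of one group did not overlap the 3 of the other for 10 of 10 members, and the same held for 74.5% of all genes tested. Tested against a minimum log2FC of 1, Eomes, Nfil3 and Prdm1 were lower (adjusted p = 1.07e-06, 5.78e-05 and 0.00521), beside 8.42% of all genes, and no member was higher.

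**Figure D2:**
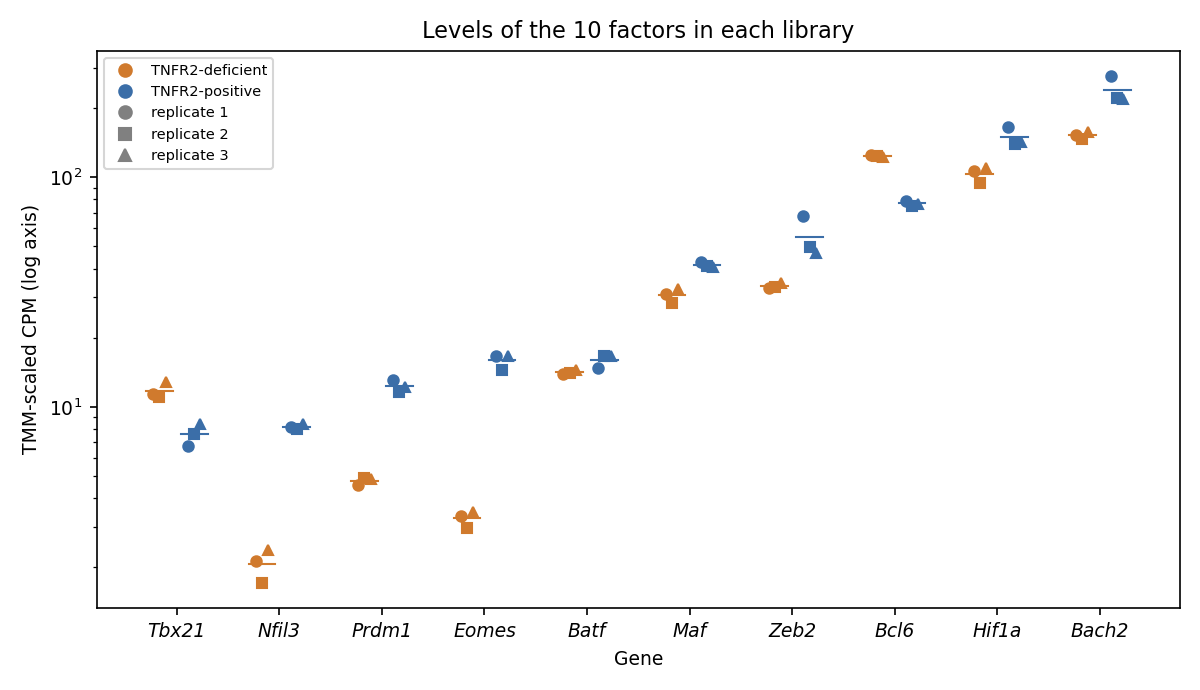
TMM-scaled CPM (log y axis) of the 10 factors (x axis) in each library, with colours for groups, symbols for replicate numbers and a horizontal line at each group mean. The groups are separate for all 10 genes, narrowly for Batf, widely for Eomes, Nfil3 and Prdm1, and Bcl6 and Tbx21 are the genes with higher TNFR2-deficient levels.

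Batf differed little between the groups and did not pass the test. TNFR2-deficient libraries 1 to 3 held 13.9, 14.1 and 14.4 CPM, and TNFR2-positive libraries 1 to 3 held 14.7, 16.6 and 16.6 CPM. The groups did not overlap, but the lowest TNFR2-positive library lay close to the highest TNFR2-deficient one. The log2FC was -0.18 (SE 0.0858, adjusted p = 0.0845). Without TNFR2-positive library 1 it was -0.24 and past the threshold (adjusted p = 0.0243), which made 8 members lower. It also passed with DESeq2-type RLE scaling (adjusted p = 0.046) and with gene length removed, at -0.29 for exonic length and at -0.47 for exonic and intronic length together (adjusted p = 0.00729 and 0.000139). Of the proteins that BATF needs for binding, Irf4, the interferon regulatory factor of effector Treg cells, fell from 251.8 ± 21.7 to 86.6 ± 3.71 CPM (log2FC = -1.54 at adjusted p = 9.23e-09). Jun, a leucine zipper partner, fell from 258.9 ± 8.35 to 108.3 ± 2.51 CPM (log2FC = -1.26 at adjusted p = 7.39e-09). The B cell markers, whose cells use Irf4 too, summed to levels above those of the T cell markers in both groups, and their part in the fall of Irf4 was not tested.

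Prdm1, encoding BLIMP-1, was low in the TNFR2-deficient group. Its levels there were 4.54, 4.87 and 4.82 CPM, while the TNFR2-positive libraries had 13.03, 11.6 and 12.2 CPM. Every TNFR2-positive library was thus more than 2-fold above every TNFR2-deficient one. The log2FC was -1.37 (SE 0.107, adjusted p = 5.96e-07) and stayed between -1.41 and -1.33 when any 1 library was left out. Plasma cells also make BLIMP-1. Of 4 plasma cell markers tested, 1 rose, 0 fell and 3 did not pass the test. The 5 of the list summed to 149.4 to 153.0 CPM in the TNFR2-deficient against 125.1 to 139.6 CPM in the TNFR2-positive libraries. The Treg markers summed to 28.8 to 33.7 against 506 to 563 CPM. The part of plasma cells and that of Treg cells in the fall of Prdm1 were not tested.

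Bcl6, the repressor that opposes BLIMP-1, was higher in the TNFR2-deficient group. It was at 125.5, 124.3 and 122.5 CPM there and at 79.2, 75.3 and 76.4 CPM in the TNFR2-positive libraries. The spread within each group was small beside the gap between them (log2FC = 0.69, SE 0.056, adjusted p = 8.19e-07). Germinal centre B cells and double-positive thymocytes also express Bcl6. Of 3 germinal centre B cell markers 2 rose and 0 fell, with summed levels of 54.1 to 57.9 CPM in the TNFR2-deficient against 27.2 to 34.5 CPM in the TNFR2-positive libraries, and the thymocyte markers rose with them. The part of these cells in the Bcl6 difference was not tested.

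Bach2, a repressor that keeps T and B cells from effector and plasma cell differentiation, fell. Its TNFR2-deficient levels of 152.7, 146.3 and 158.2 CPM lay below the TNFR2-positive levels of 275.9, 221.9 and 218.4 CPM. TNFR2-positive library 1 was the highest of the 6, and without it the log2FC was -0.53 in place of -0.65 (SE 0.0864, adjusted p = 3.85e-05 with it, 6.61e-09 without it). With exonic length removed it was -0.20 (adjusted p = 0.00319). A pair of noncoding transcripts annotated at the locus, chosen after their values were seen, moved with it. Bach2os, the antisense transcript, was at 0.653 ± 0.268 against 2.39 ± 0.494 CPM (log2FC = -1.87 at adjusted p = 0.000214), and Bach2it1, a sense intronic transcript, was at 0.736 ± 0.0377 against 1.34 ± 0.185 CPM (log2FC = -0.87 at adjusted p = 0.0118; 0.0578 without TNFR2-positive library 1). The strand setting of the counting is not given in the sources used here, so reads of Bach2 and of these transcripts cannot be told apart.

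The balance of these repressors was set out as ratios within each library, which scaling affects only through the small value added. With 0.5 CPM added to each gene, the log2 ratio of Prdm1 to Bcl6 was -4.64, -4.54 and -4.53 in the TNFR2-deficient and -2.56, -2.64 and -2.60 in the TNFR2-positive libraries. The difference of the means was -1.97. For Prdm1 to Bach2 the means were -4.87 ± 0.0815 and -4.22 ± 0.125, a difference of -0.65, with no overlap between groups. In each of the 3 pairs of genes compared, the exact two-sided permutation test gave p = 0.10 (adjusted p = 0.10 over the 3 ratios), the smallest p that 3 libraries against 3 allow.

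The windows before the start sites of Prdm1 and Bcl6 are shown because this pair moved in opposite directions. Both are the 250 bases before the RefSeq start in build GRCm38.p6, an older build than that of the counts, on the minus strand, at chr10:44458749-44458998 for Prdm1 and chr16:23988853-23989102 for 1 of the 2 Bcl6 windows. Capitals mark matches to motifs of the members: CAGGTG, the E-box bound by ZEB factors, and TGANTCA, the AP-1 element of JUN and BATF dimers, in Prdm1, and ACGTG, the core of hypoxia elements, in Bcl6, where matches on the 2 strands overlap.
Prdm1: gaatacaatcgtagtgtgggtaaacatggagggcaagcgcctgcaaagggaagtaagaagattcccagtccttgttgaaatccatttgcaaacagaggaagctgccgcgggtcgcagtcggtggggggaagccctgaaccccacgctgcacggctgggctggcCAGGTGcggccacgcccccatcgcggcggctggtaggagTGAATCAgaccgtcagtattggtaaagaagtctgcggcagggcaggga
Bcl6: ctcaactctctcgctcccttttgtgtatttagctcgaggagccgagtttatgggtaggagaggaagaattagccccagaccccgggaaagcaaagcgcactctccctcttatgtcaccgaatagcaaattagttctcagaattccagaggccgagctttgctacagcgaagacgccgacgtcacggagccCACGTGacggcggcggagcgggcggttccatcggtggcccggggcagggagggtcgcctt
The AP-1 match of Prdm1 lies 48 to 42 bases before the start. The Bcl6 window not shown held no match to any of the motifs searched. Some members have more than 1 window. Over the 13 windows of 300 bases of 9 of the 10 members (all but Maf), both strands were searched. AP-1 letters were found for Prdm1 and Zeb2, though not in every Zeb2 window, and in 7.81% of all 32851 windows. CAGGTG was found for Prdm1, Tbx21 and Hif1a and in 20.21% of all windows, and ACGTG for Bcl6 and Hif1a and in 19.62%. The letters AGTGAAAG of PRDM1 and IRF sites and TTCCTAGAA of BCL6 sites were found in 0 of the member windows and in 1.32% and 0.41% of all windows.

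The paralogous T-box factors moved apart. Tbx21, which encodes T-bet, had 11.3, 11.1 and 12.8 CPM in the TNFR2-deficient and 6.73, 7.57 and 8.43 CPM in the TNFR2-positive libraries. The TNFR2-deficient libraries were all higher (log2FC = 0.64, SE 0.116, adjusted p = 0.000419). Eomes had 3.33, 2.98 and 3.49 CPM in the TNFR2-deficient and 16.6, 14.5 and 16.7 CPM in the TNFR2-positive libraries. Its fall was the largest among the 10 genes (log2FC = -2.28, SE 0.117, adjusted p = 1.87e-08), and only 4.78% of the genes tested had a lower log2FC. The log2 ratio of Tbx21 to Eomes, in CPM not divided by length, was 1.63, 1.73 and 1.74 in the TNFR2-deficient and -1.24, -0.89 and -0.95 in the TNFR2-positive libraries. The groups differed by 2.73 with no overlap (exact permutation p = 0.10, as above). Per kilobase of exon, the levels were 4.72 ± 0.388 for Tbx21 and 0.786 ± 0.0632 for Eomes in the TNFR2-deficient libraries, and 3.04 ± 0.341 and 3.83 ± 0.302 CPM per kb in the TNFR2-positive ones, so Tbx21 was the higher of the pair in the first group and by a small margin the lower in the second.

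NK cells express both T-box genes, and all of their markers fell with Eomes. Of 7 NK cell markers 7 fell and 0 rose, with summed levels of 64.2 to 66.1 CPM in the TNFR2-deficient against 167.4 to 176.5 CPM in the TNFR2-positive libraries. Their log2FC ran from -2.18 (Klra8) to -0.85 (Gzma), with a median of -1.48, against -2.28 for Eomes. None of the 7 was at 0 in either group. Their part in the fall of Eomes was not tested, and the rise of Tbx21 went in the opposite direction.

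**Figure D3:**
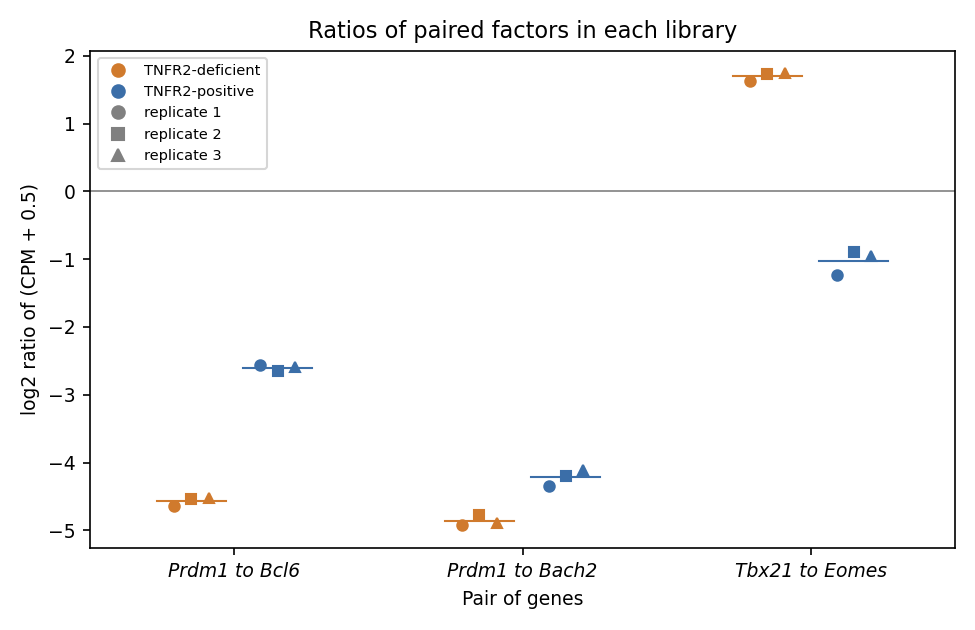
Log2 ratio of TMM-scaled CPM + 0.5 (y axis) for 3 pairs of factors (x axis) in each library, not divided by gene length, with horizontal lines at group means. Tbx21 to Eomes changes sign between the groups, from a mean of -1.03 in the TNFR2-positive to 1.70 in the TNFR2-deficient libraries, and both Prdm1 ratios are lower in the TNFR2-deficient libraries.

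Windows of the T-box pair are given for the same reason. They are the 250 bases before the RefSeq starts in GRCm38.p6, at chr11:97115332-97115581 on the minus strand for Tbx21 and chr9:118477939-118478188 on the plus strand for Eomes. Capitals mark CAGGTG in Tbx21, 196 to 191 bases before the start.
Tbx21: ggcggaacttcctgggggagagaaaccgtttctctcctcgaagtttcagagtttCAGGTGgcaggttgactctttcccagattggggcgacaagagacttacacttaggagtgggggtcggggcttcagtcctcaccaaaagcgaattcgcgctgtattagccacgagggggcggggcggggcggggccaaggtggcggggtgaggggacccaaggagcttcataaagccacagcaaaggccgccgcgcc
Eomes: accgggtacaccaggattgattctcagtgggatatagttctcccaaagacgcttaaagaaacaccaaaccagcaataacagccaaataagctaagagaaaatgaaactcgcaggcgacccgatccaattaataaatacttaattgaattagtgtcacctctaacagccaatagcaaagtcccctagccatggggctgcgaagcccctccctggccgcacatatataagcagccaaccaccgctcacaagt
The Eomes window held no match to any of the 8 motifs searched, which besides those above were AGGTGTGA for T-box factors (0 member windows, 1.28% of all), TTATGTAA for NFIL3 (0 member windows, 0.94%) and the Maf half-site TGCTGA (Hif1a, 19.48%). A match in such letters is a description and not a site.

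Zeb2, the zinc finger repressor that acts with T-bet in effector cells and is also a factor of myeloid cells, was lower, with 1 library apart. TNFR2-deficient levels were 32.9, 33.4 and 34.7 CPM, and TNFR2-positive levels were 67.5, 49.8 and 47.0 CPM. TNFR2-positive library 1 was again the highest (log2FC = -0.70, SE 0.115, adjusted p = 0.000186; -0.53 without that library). The antisense transcript Zeb2os, chosen after its values were seen, went the other way, at 2.53 ± 0.391 against 0.995 ± 0.309 CPM (log2FC = 1.35 at adjusted p = 0.000711), with the same limit on strand. Macrophage and monocyte markers rose for 9 of 10, from a summed 357.3 to 388.2 to 861.2 to 934.9 CPM, a direction opposite to that of Zeb2. Conventional dendritic cell markers fell for 4 of 5, from 42.1 to 45.3 to 19.8 to 20.5 CPM, and plasmacytoid ones for 2 of 3 with 1 higher, from 162.0 to 189.2 to 121.0 to 135.2 CPM. Their part was not tested.

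Nfil3, a basic leucine zipper repressor of innate lymphocytes and of helper T cells, fell nearly as far as Eomes. Its levels were 2.12, 1.71 and 2.37 CPM in the TNFR2-deficient and 8.19, 7.98 and 8.43 CPM in the TNFR2-positive libraries. With 38 to 57 reads in each TNFR2-deficient library it was the least counted of the 10 genes there. The log2FC was -1.98 (SE 0.147, adjusted p = 4.03e-07) and ran from -2.10 to -1.87 when any 1 library was left out. The NK cell and Treg markers above fell beside it, and the part of these cells was not tested.

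Maf, encoding c-MAF, an activator of Il10 and of follicular helper genes, fell by a small amount. Levels were 31.0, 28.3 and 32.5 CPM in the TNFR2-deficient and 42.6, 40.9 and 40.7 CPM in the TNFR2-positive libraries, so the groups were separate (log2FC = -0.44, SE 0.0689, adjusted p = 0.000141). Macrophage genes, whose cells also express Maf, moved the other way, C1qa for example from 18.6 ± 1.58 to 109.2 ± 3.94 CPM (log2FC = 2.56 at adjusted p = 1.61e-10), and their part in the Maf difference was not tested.

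Hif1a, the oxygen-regulated subunit of HIF-1, was lower as well. Its levels were 106.8, 94.5 and 109.6 CPM in the TNFR2-deficient and 165.0, 140.0 and 143.1 CPM in the TNFR2-positive libraries. TNFR2-positive library 1 was the highest, as for Bach2 and Zeb2 (log2FC = -0.53, SE 0.0796, adjusted p = 9.92e-05; -0.45 without that library). HIF-1alpha is controlled largely as a protein, which counts of mRNA do not measure. The list of partners and regulators holds 6 genes of this pathway, and they did not move one way. Arnt, its partner, and Hif1an, which hydroxylates its activation domain, fell (log2FC = -0.41 and -0.59). Egln2, an oxygen sensor, Cited2, a competitor for its coactivator, and Vhl, part of the ligase that degrades it, rose (log2FC = 0.42, 0.33 and 0.16). Egln1, the main oxygen sensor, did not pass the test (log2FC = 0.11 at adjusted p = 0.141).

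Gene length moved with several of these differences, and its part in them beyond the fits below was not tested. Across 16643 genes tested that had a length, the log2FC fell with exonic length (Spearman rho = -0.298 across genes, which are not independent replicates). With each library's relation to exonic length removed by offsets, 6 members were lower, beside 28.7% of all genes, and 2 higher, beside 39.4%. Zeb2, whose exons span 19942 bases, then had a log2FC of 0.035 (adjusted p = 0.638), and Maf, with 8241 bases, one of -0.08 (adjusted p = 0.291), so both calls were lost. Bach2, with 9940 bases, went from -0.65 to -0.20 (adjusted p = 0.00319) and Hif1a, with 5896 bases, from -0.53 to -0.33 (adjusted p = 0.000114). Batf, the shortest at 1406 bases, moved the other way, to -0.29. Eomes, Nfil3 and Prdm1 stood at -2.26, -2.10 and -1.21, and Bcl6 and Tbx21 at 0.95 and 0.53, all past the threshold. With intronic length removed as well, Batf was at -0.47 and Bach2 at -0.42 (adjusted p = 0.000139 and 1.01e-05), Maf was lower again (log2FC = -0.21 at adjusted p = 0.00739), Zeb2 was at 0.0024 (adjusted p = 0.976) and Tbx21 at 0.38 (adjusted p = 0.00807).

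**Figure D4:**
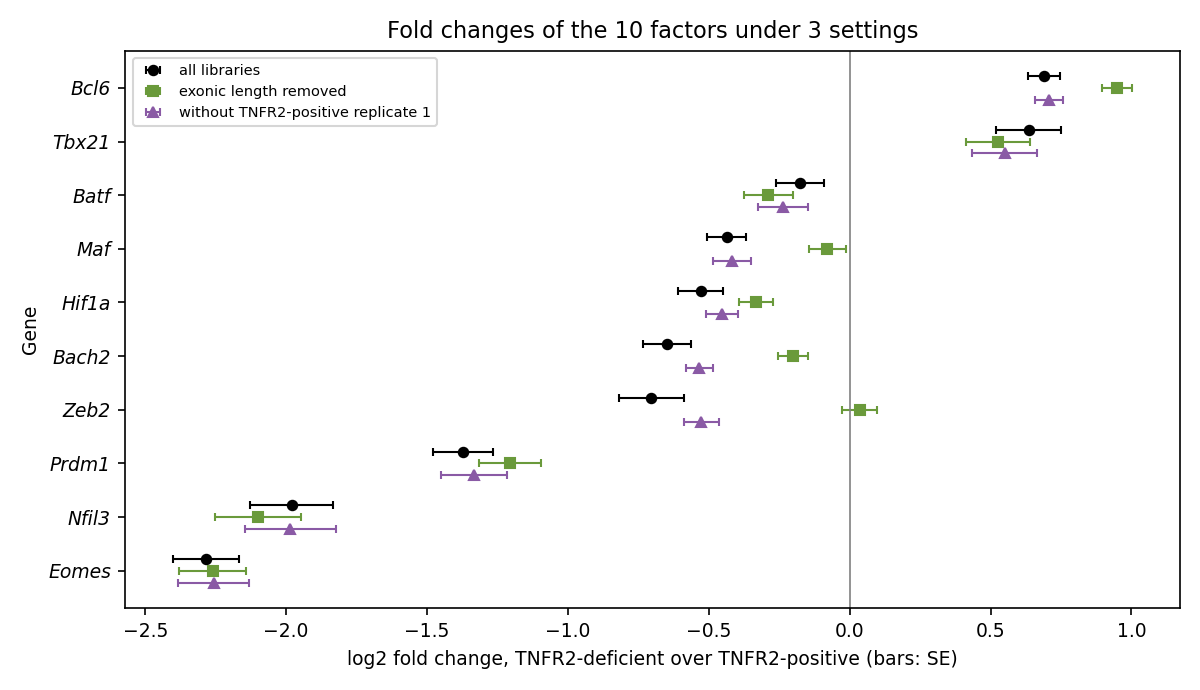
Log2 fold change (x axis, bars are SE) of the 10 factors (y axis) with all libraries, with the relation to exonic length removed, and without TNFR2-positive replicate 1. All genes but Zeb2 keep their side under all 3, Maf only narrowly with length removed, at -0.08. Zeb2 moves from -0.70 to 0.035 with length removed.

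Set per kilobase of exon, so that genes can be compared, the order of the levels differed between the groups. In the TNFR2-positive libraries Hif1a was the most abundant at 25.3 ± 2.31 CPM per kb, followed by Bach2 at 24.0 ± 3.24, and their ranges overlapped. Bcl6 and Batf came next at 11.5 ± 0.30 and 11.4 ± 0.772, also overlapping, and Prdm1 was lowest at 2.20 ± 0.127 CPM per kb. Maf, Nfil3, Eomes, Tbx21 and Zeb2 lay between at 5.03, 4.05, 3.83, 3.04 and 2.74 CPM per kb, where Nfil3 overlapped Eomes and Tbx21 overlapped Zeb2. In the TNFR2-deficient libraries Bcl6 was first at 18.5 ± 0.226 CPM per kb and overlapped Hif1a at 17.6 ± 1.36. Bach2 at 15.3 ± 0.595 CPM per kb and Batf, between 9.87 and 10.3, followed, then Tbx21, Maf and Zeb2 at 4.72, 3.71 and 1.69. Nfil3, Prdm1 and Eomes were lowest, at 1.02, 0.851 and 0.786 CPM per kb, and each overlapped its neighbour in that order.

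Genes listed as products of effector Treg cells were mostly lower, with a median below that of the factors. Of 17 tested of 18 listed, 14 fell and 0 rose (median log2FC = -2.44, 0.04 over all genes). Over all genes tested the shares were 34.2% lower and 35.1% higher. Itgae, the integrin CD103, fell from 52.0 ± 5.04 to 2.59 ± 0.225 CPM (log2FC = -4.33 at adjusted p = 5.53e-11). Tnfrsf9, which encodes 4-1BB, fell from 21.9 ± 2.13 to 2.09 ± 0.121 CPM (log2FC = -3.39 at adjusted p = 1e-09), and Icos, a costimulatory receptor of effector and follicular cells, from 48.6 ± 3.71 to 8.96 ± 1.04 CPM (log2FC = -2.44 at adjusted p = 1.77e-09). Ebi3, Lag3 and Cxcr3, named as the 3 that did not pass, had log2FC of 0.00, -0.20 and 0.05. Treg markers fell in the same libraries, and whether the products fell within Treg cells was not tested.

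Type 1 effector genes, the programme of T-bet, EOMES and ZEB2, fell for 11 of 15, and 1 rose (median log2FC = -0.88). Of all genes tested, 34.2% were lower and 35.1% higher. Il2rb, a receptor chain for IL-2 and IL-15 that both T-box factors induce, fell from 215.6 ± 5.10 to 21.2 ± 1.89 CPM (log2FC = -3.35 at adjusted p = 2.33e-11). Il18r1, an IL-18 receptor chain, fell from 37.4 ± 5.02 to 7.34 ± 0.46 CPM (log2FC = -2.35 at adjusted p = 7.35e-09), and Prf1, the pore former perforin, from 15.9 ± 0.269 to 6.88 ± 0.827 CPM (log2FC = -1.21 at adjusted p = 1.53e-06). Cxcr3, a T-bet target, was at 10.2 ± 0.726 against 9.86 ± 0.15 CPM (log2FC = 0.05 at adjusted p = 0.686) while Tbx21 was higher. The NK cell markers fell beside this list, and so did the Treg markers, from a summed 506 to 563 to 28.8 to 33.7 CPM. The part of these cells in the fall of the list was not tested.

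Resting and naive T cell genes, which BACH2 helps to keep on, fell for 6 of 11 and rose for 3 (median log2FC = -0.30), beside 34.2% and 35.1% of all genes tested. Tcf7, which encodes TCF-1 of resting T cells and of thymocytes, rose from 221.7 ± 3.80 to 994.6 ± 9.08 CPM (log2FC = 2.17 at adjusted p = 6.3e-11), and Satb1, a chromatin organiser abundant in thymocytes, rose from 275.4 ± 17.8 to 873.5 ± 49.2 CPM (log2FC = 1.67 at adjusted p = 3.03e-09). Il7r, the IL-7 receptor chain that double-positive thymocytes switch off, fell from 186.2 ± 17.1 to 25.1 ± 1.48 CPM (log2FC = -2.89 at adjusted p = 1.27e-10). The thymocyte markers rose from 142 to 151 to 2268 to 2396 CPM in the same libraries, and their part was not tested.

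Follicular T cell genes, the programme of BCL6 and c-MAF, were called higher for 4 of 11 tested and lower for 6 (median log2FC = -0.28, 13 listed), beside 35.1% and 34.2% of all genes tested, so the share that rose was near that of all genes. Sh2d1a, encoding the adaptor SAP, rose from 9.97 ± 1.90 to 64.1 ± 1.04 CPM (log2FC = 2.69 at adjusted p = 2.04e-09). Il6ra, the IL-6 receptor, fell from 89.6 ± 3.58 to 32.5 ± 0.143 CPM (log2FC = -1.46 at adjusted p = 3.01e-09), and Icos belongs to this list too. Il21 and Ascl2 were too low to test.

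Of 19 HIF-1 targets tested, 7 rose and 4 fell (median log2FC = 0.13, 20 listed), beside 35.1% and 34.2% of all genes tested, so the share that rose was near that of all genes. Egln3, an oxygen sensor induced by HIF-1, rose from 3.33 ± 0.682 to 12.3 ± 1.28 CPM (log2FC = 1.88 at adjusted p = 7.25e-07), and Mxi1, a MYC antagonist, from 19.4 ± 1.32 to 36.1 ± 1.45 CPM (log2FC = 0.89 at adjusted p = 9.33e-07). Pfkfb3, a regulator of glycolysis, fell from 75.0 ± 4.22 to 45.7 ± 2.45 CPM (log2FC = -0.71 at adjusted p = 2.6e-06). With exonic and intronic length removed, 7 targets fell, beside 5622 of all 17022 genes tested.

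Partners and regulators of the members fell for 8 of 18 and rose for 4 (median log2FC = -0.09), beside 34.2% and 35.1% of all genes tested. Beside Irf4 and Jun, Bcor, a corepressor of BCL6, fell from 140.7 ± 10.3 to 75.9 ± 3.35 CPM (log2FC = -0.89 at adjusted p = 5.41e-07). Among relatives of the members 4 of 12 tested rose, a share near that of all genes, and 1 fell (median log2FC = 0.16, 13 listed). Bach1, the relative of Bach2, rose from 44.9 ± 4.54 to 66.9 ± 4.66 CPM (log2FC = 0.57 at adjusted p = 6.16e-05), the direction opposite to Bach2. Tef, a relative of Nfil3 that binds like sequences, was the 1 that fell, from 50.9 ± 2.85 to 36.2 ± 1.31 CPM (log2FC = -0.49 at adjusted p = 4.06e-05). In 8 of the alternatives with no minimum fold, TNFR2-positive library 1, TNFR2-deficient library 1 or TNFR2-deficient library 3 left out among them, 2 relatives fell.

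Other lineage factors of T cells fell for 7 of 12 and rose for 2 (median log2FC = -0.36). The shares of all genes tested were 34.2% and 35.1%. Beside Foxp3 (log2FC = -5.70 at adjusted p = 1.46e-12), Ikzf4, the Ikaros family factor EOS of Treg cells, fell from 17.2 ± 0.682 to 1.13 ± 0.358 CPM (log2FC = -3.91 at adjusted p = 3.55e-09). With exonic length removed, 4 of the 12 rose, beside 39.4% of all genes. No member of the 10 changed as much as Foxp3 or Ikzf4. Each of Icos, Pdcd1, Klrg1, Cxcr3, Runx3 and Id3 is in 2 lists, so their counts are not independent.

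**Figure D5:**
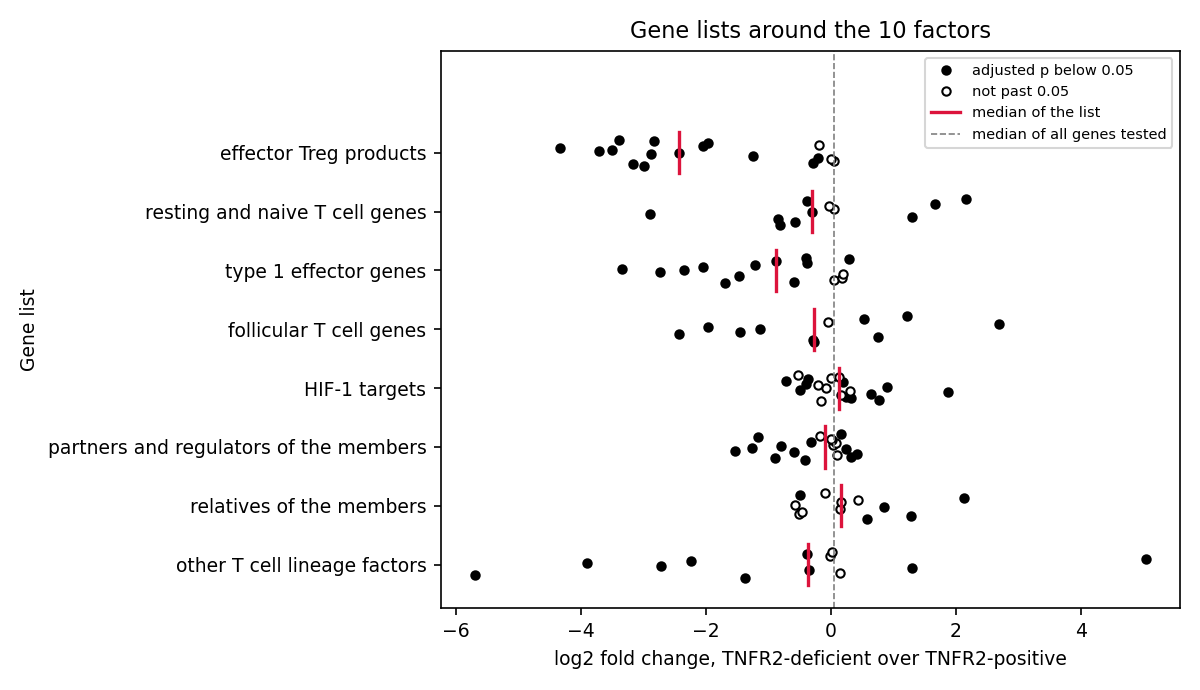
Log2 fold change (x axis) of each tested gene in 8 gene lists (y axis), filled where the adjusted p is below 0.05, with the list median in red and the median of all genes as a dashed line. Effector Treg products lie furthest to the left, with a median of -2.44, and the medians of the HIF-1 targets, partners and relatives lie within 0.2 of 0.

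The genes most like each member over the 6 libraries, by Euclidean distance of centred log2(CPM + 0.5) among 9959 genes with a mean of at least 5 CPM, lay between 0.0326 and 0.26 from it. For Bach2 they were Ncapd3 and Chm (distances 0.0326 and 0.0368), for Hif1a Trim30d and Gsk3b (0.0425 and 0.0485), and for Batf Ehd4 and Irf9 (0.0481 and 0.0584). Bcl6 was nearest to Dnase1l2 and Rfesd (0.056 and 0.0576), Maf to Retreg1 and S100pbp (0.057 and 0.058), Tbx21 to Mapk7 and Pycrl (0.0718 and 0.102) and Prdm1 to Rrp1b and Ubash3b (0.0757 and 0.132). Zeb2 was nearest to Ercc6l2 and Atp8a1 (0.0851 and 0.0911), Nfil3 to Nr4a3 and Palm3 (0.135 and 0.206) and Eomes to Rarg and Sik1 (0.246 and 0.26).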

How the data were processed

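Gene counts of 6 mouse RNA-seq libraries in 2 groups of 3 were used, with groups and replicate numbers from the sample titles. The authors deposited whole-number read counts per gene, not normalized. HISAT2 2.1.0 and build GRCm39 are named per the submitters' processing notes. For the counting program, its annotation and its strand setting nothing is given in the sources used here. Per the labels' protocols, RNA was captured with oligo-dT beads and libraries were amplified by PCR.

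Of 32377 identifiers 30529 matched a symbol in the supplied table; the others, with 0.495% to 0.596% of each library's counts, were kept. In edgeR 4.0.16 (R 4.3.3), filterByExpr selected genes, TMM scaled libraries and the quasi-likelihood functions glmQLFit and glmQLFTest gave the test, design group only, with Benjamini-Hochberg adjustment over 17022 genes and a threshold of 0.05. The test was checked on simulated data. It recovered 25 of 49 genes given a 1.5-fold change, 41 of 48 at 2-fold and 49 of 49 at 8-fold. Of 16461 unchanged genes 16 were called. CPM are TMM-scaled. Exonic lengths are from GENCODE M21 (GRCm38) and cover 97.8% of the genes tested; promoter windows are from RefSeq GRCm38.p6.

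The members, lists and tests were chosen with earlier results of these data known. Named were the members, the 3 genes of each of 8 lists with the smallest adjusted p, Tnfrsf1b, Foxp3, Rag1 and Trac (208.6 ± 3.95 against 141.1 ± 1.71 CPM), and the 2 genes nearest each member; a few of these are not reported here. Others are said to have been picked after their values were seen or illustrate a marker list (C1qa, Klra8, Gzma) or complete a pathway (HIF-1 regulators) or a list. Alternative settings were DESeq2 1.42.0, limma-voom (limma 3.58.1), RLE, upper-quartile and library-size scaling, no filter and a filter of 1 CPM in 3 libraries, a test against a log2 fold change of 1, a block for replicate number, leaving out each library, removal of exonic length by natural splines (4 degrees of freedom), and leaving out marker genes of other cell types and mitochondrial genes. Removal of intronic length as well was added after the data were seen. No 2 libraries agreed within sampling noise (chi-square per gene 2.43 to 18.5 within groups).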

Additional observations from a re-analysis of the deposited data

How the results depend on the processing

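Over 19 alternatives, Eomes, Nfil3 and Prdm1 kept their call and direction in each. Bcl6, Tbx21, Bach2 and Hif1a lost theirs only against a minimum log2 fold change of 1, where 3 members were lower and 0 higher and, over all genes, 1434 were lower and 764 higher. Zeb2 turned direction with exonic length removed (log2FC = 0.035), with that and the replicate block (0.0355) and with exonic and intronic length removed (0.0024), none past the threshold; the cause was not tested. Maf lost its call with exonic length removed, without and with the replicate block. Batf passed in 5 alternatives. Leaving out 1 library gave 7 or 8 lower members and 2 higher, and 5298 to 5955 higher and 5676 to 5821 lower genes. DESeq2 called 5183 higher and 5731 lower genes. The shift in the median of all genes was at most 0.0765. The ratios kept their direction with 0.1 or 2 CPM added and without any 1 library, when Prdm1 to Bcl6 ran from -1.99 to -1.93, Prdm1 to Bach2 from -0.71 to -0.59 and Tbx21 to Eomes from 2.62 to 2.79; those designs cannot reach the threshold.

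Libraries of the 2 groups share replicate numbers, but these did not pair them: the correlation of deviations from the group means was 0.0372, 0.054 and -0.0611 for numbers 1 to 3, and not every library correlated best with its own number. With the replicate block 6005 genes were higher and 5851 lower, with 7 members lower and 2 higher. Depth limits the low genes: Nfil3 had 38 to 57 and Eomes 66 to 84 counts in the TNFR2-deficient libraries.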

Other observations

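Some genes of germinal centre and follicular B cells were higher in the TNFR2-deficient libraries. S1pr2, a receptor that holds B cells in the germinal centre, was at 18.5 ± 0.561 against 9.49 ± 0.75 CPM (log2FC = 0.96, adjusted p = 2.68e-06). Cxcr5, the follicle-homing receptor of B cells and follicular T cells, was at 222.0 ± 5.41 against 131.4 ± 7.15 CPM (log2FC = 0.76, adjusted p = 7.82e-07), while the B cell marker Ms4a1 was at 1054 ± 37.9 against 1109 ± 25.8 CPM (log2FC = -0.07, adjusted p = 0.265). These genes were chosen after their values were seen.

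Erythroid and platelet markers rose for 4 of 4 and 4 of 4, the erythroid ones from a summed 1882 to 3156 to 8333 to 9765 CPM. Neutrophil markers, 3 of 4 tested, did not pass the test, and 1 of 5 markers of thymic epithelium passed the filter on low counts (Epcam, log2FC = 0.06, adjusted p = 0.671). Krt5 and Foxn1 were at 0 in all TNFR2-positive libraries. In TNFR2-deficient libraries 1 to 3 they had only 3, 2 and 2 counts (Krt5) and 1, 0 and 0 counts (Foxn1). Krt8 had 9, 9 and 4 against 0, 1 and 2 counts, and Psmb11 1, 2 and 5 against 3, 2 and 0.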
